A study of Rattus norvegicus with 6 samples.

Results

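Genes of the BCL2 family and the caspases were followed in the dorsolateral prostate of male ACI rats, an inbred strain, through all probe sets that the array annotation gives to Bcl2, Bcl2l1, Bcl2l2, Mcl1, Bax, Bad, Casp1, Casp2 and Diablo. These 9 genes were taken by name from a list and not by measured values. They had 20 of the 8799 probe sets of the array. Of these, 17 belonged to 1 listed gene, and 7 of the 9 genes had at least 1 such probe set. The other 3 were annotated jointly to Bax and LOC681314, so their signal could not be given to Bax alone. Mcl1 had no named probe set and was not analysed here.

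The arrays compared 3 rats given a high corn oil diet with 3 rats given a low corn oil diet, each for 18 months. The labels call all 6 rats 18 month old, and each rat had its own array, hybridized with RNA from part of its dorsolateral prostate. No genetic change or other agent is named for either diet. The title and source name of high corn oil replicate 3 give the high diet and its free-text description the low one, and it was kept as a high corn oil array. The tissue is a mixture, so fewer cells of a type and less RNA per cell cannot be told apart.

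The BCL2 family sets whether the outer mitochondrial membrane stays closed. Bcl2, Bcl2l1 (Bcl-x), Bcl2l2 (Bcl-w) and Mcl1 restrain the pore-forming proteins Bax and Bak1, and small proteins such as Bad counter that restraint. Once the membrane opens, cytochrome c starts the caspase cascade, and Diablo (Smac) relieves the inhibitors that hold caspases in check. Casp2 is an initiator-type caspase, while Casp1 works in the inflammasome, where it matures the cytokines interleukin-1 beta and interleukin-18. The rat prostate is a classical tissue for apoptosis, because its secretory epithelium is lost after castration.

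Of the 20 probe sets, 5 were above noise on all 6 arrays, 6 on some arrays and 9 on none. The values are intensities on a linear scale and can lie below 0. A value counted as above noise when it exceeded the 95th percentile of the sizes of the values below 0 on the same array. This bound stood at 1237, 2040 and 1745 on the high corn oil arrays (replicates 1 to 3), against 1049, 1054 and 1227 on the low corn oil arrays. Each high corn oil bound was thus above each low corn oil bound, with the 2 highest in high corn oil replicates 2 and 3. The 5 probe sets above noise on all arrays were the brightest ones of Bad, Casp1, Casp2 and Diablo and the brightest joint one of Bax and LOC681314. Among all 8740 probe sets other than controls, 26.5% met the same bound on all arrays.

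None of the tested probe sets of the listed genes passed the test between the diets, as was true of every tested probe set on the array, so the values below show what was measured and not that the diets were alike. Differences are given as high minus low corn oil on the log2(intensity + 156.1) scale. The added number shrinks the change of dim genes, while a single value below 0 can give them a large difference, as for Bcl2l2 below. Of the 20 probe sets, 15 passed a filter on the mean over the 6 arrays and were tested with limma among 5244 in all. Of these 15, 0 passed at an adjusted p of 0.05, where 0.0% of all tested probe sets passed, and 0 had an unadjusted p under 0.05, against 9.95% of all tested. This last count was 2 without high corn oil replicate 1 (both Bcl2l1), 1 without low corn oil replicate 3 (Diablo), 2 with array weights (Bcl2l1 and Diablo), and 1 with the third high corn oil array moved to the low diet (Casp2). In the same order, those settings gave 1363, 514, 1534 and 75 of all 5244 tested probe sets. The high and low corn oil values did not overlap in 0 of the 15, against 15.5% of all tested. A difference above 0 was found in 11 of the 15, against 53.9% of all tested, and their median was 0.11 against 0.03. The smallest limma p among the 15, that of Diablo, was 0.0569 unadjusted and 0.501 adjusted.

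**Figure D1:**
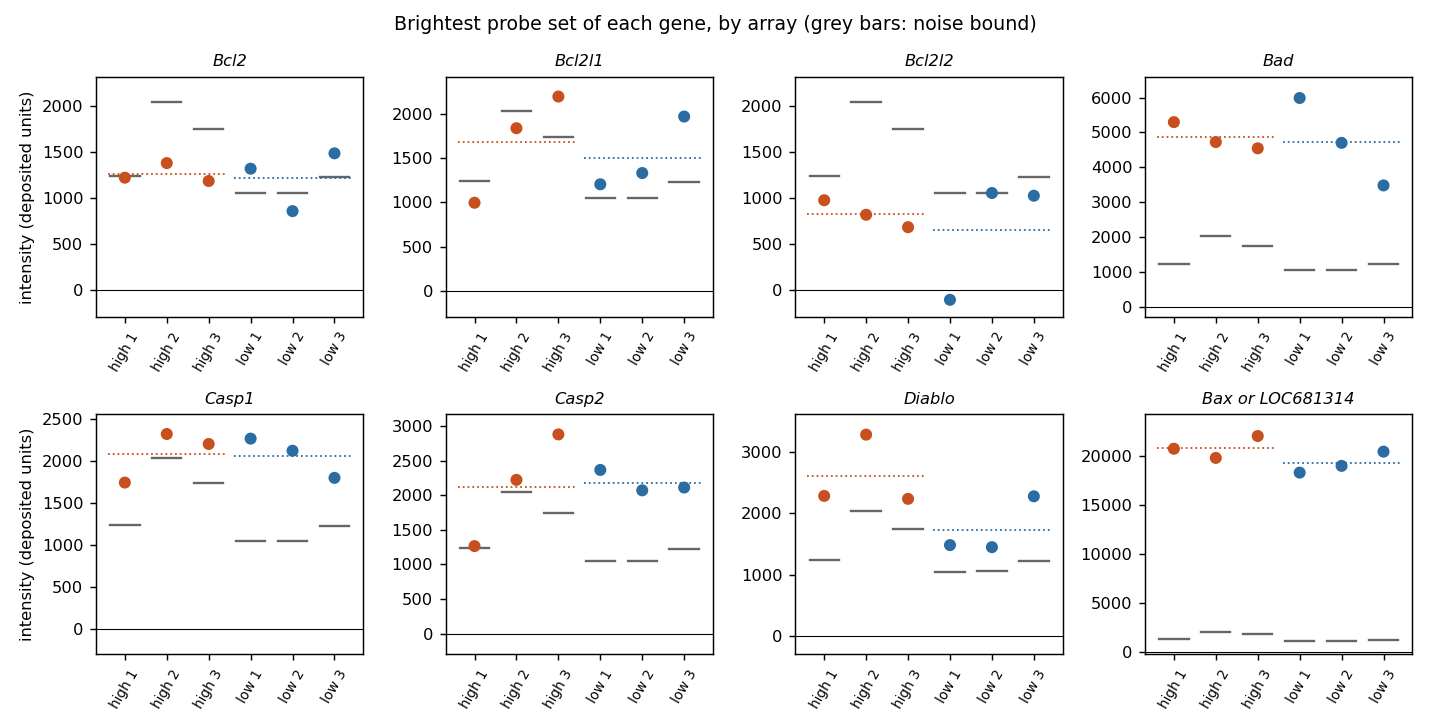
Intensity of the brightest probe set of each gene (vertical axis, deposited units) on each array (horizontal axis, high corn oil left in orange, low corn oil right in blue). Dotted lines are diet means and grey bars the noise bound of each array. Bad and the joint probe set of Bax and LOC681314 lie well above the bound on all arrays, Casp2 in high corn oil replicate 1 lies just above it at 1264.5 against 1237, and the diets overlap in every panel.

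Among the anti-apoptotic genes, Bcl2 lay near the noise bound, and its diets overlapped. Its brightest probe set read 1216, 1375 and 1180.1 in the high corn oil rats and 1314, 853 and 1481 in the low corn oil rats. It was above noise on 0 high and 2 low corn oil arrays. The high corn oil values lay inside the range of the low ones, and the log2 difference was 0.07 ± 0.24 (SE, limma adjusted p = 0.912) with a 95% interval of -0.49 to 0.63. The middle Bcl2 probe set read at most 94.6 on any array. The dimmest was below 0 on all 6 arrays, between -4187 and -1330.1, and gives no level.

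Bcl2l1, which encodes the anti-apoptotic Bcl-xL and, by alternative splicing, the pro-apoptotic Bcl-xS, had 4 probe sets with unlike values. The RefSeq annotation gives the gene 4 transcript starts within 1525 bases. Windows of the most upstream start and of the next one, 1019 bases further on, are shown because probe sets and starts are both several for this gene and the files do not pair them. They lie on build GRCr8, minus strand, at chr3:161764726-161765025 and chr3:161763707-161764006, and run from 250 bases before to 50 bases after the start. Capitals mark a match to any of 4 motifs searched on both strands, namely the TATA box as TATAAA, the CCAAT box by the letters of its name, the GC box as GGGCGG, and an interferon-type element made of GAAA, any 2 bases and again GAAA.
Bcl2l1 upstream start: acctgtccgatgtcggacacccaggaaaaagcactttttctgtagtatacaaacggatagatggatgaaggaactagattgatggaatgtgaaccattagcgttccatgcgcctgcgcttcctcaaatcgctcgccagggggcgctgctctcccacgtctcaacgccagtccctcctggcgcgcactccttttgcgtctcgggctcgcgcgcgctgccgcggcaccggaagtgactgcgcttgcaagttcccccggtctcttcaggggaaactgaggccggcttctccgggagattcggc
Bcl2l1 downstream start: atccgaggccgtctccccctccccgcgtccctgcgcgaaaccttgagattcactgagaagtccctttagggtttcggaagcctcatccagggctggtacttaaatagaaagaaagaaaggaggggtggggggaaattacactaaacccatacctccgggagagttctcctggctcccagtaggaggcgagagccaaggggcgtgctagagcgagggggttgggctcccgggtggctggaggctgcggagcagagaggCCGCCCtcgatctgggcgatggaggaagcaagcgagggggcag
The upstream window held 0 matches and 59.0% G or C, and the downstream window held 1 GC box and 61.3% G or C. The windows of the starts 1390 and 1525 bases further on, not shown, held 2 and 1 CCAAT boxes and 49.7% and 42.0% G or C. Those windows overlap and have 1 box in common. A GC box was present in 33.1% of 33469 RefSeq windows of this length, and the median window held 51.7% G or C.

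The brightest Bcl2l1 probe set read 996, 1841 and 2200 in the high corn oil rats and 1205.0, 1333 and 1973 in the low corn oil rats. The next read 227, 2620.4 and 2437 in the high corn oil rats and 662, 988 and 1779 in the low ones. The third read 966, 2362 and 1986 in the high corn oil rats and 1028, 633 and 1491 in the low ones. Values lay near the noise bound or under it, and the next read 227 in high corn oil replicate 1, far under the bound of 1237. The brightest was above noise on 1 high and 3 low corn oil arrays, and the next and the third each on 2 high and 1 low. In all 3 probe sets, the diets overlapped, and replicates 2 and 3 of the high diet together with replicate 3 of the low diet were above the other 3 arrays. Those same 3 arrays had the lowest signal of the bacterial control transcripts (BioB, BioC, BioD) spiked into every hybridization, with mean log2 signals of 12.62, 13.17 and 13.06 against 13.91 to 14.36. Such a separation, with all low spike-in arrays higher, was found in 15.6% of all tested probe sets and in 4 of the 15 tested here, and 3 of these 4 were Bcl2l1. The part of spike-in level in these values was not tested.

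The 3 tested Bcl2l1 probe sets differed between the diets by 0.11 ± 0.32, 0.20 ± 0.76 and 0.66 ± 0.39 (log2, SE, limma adjusted p = 0.897, 0.923 and 0.539). Within the 3 arrays of high spike-in level the differences were -0.31, -1.33 and 0.22, and within the 3 of low level 0.03, 0.47 and 0.50. With high corn oil replicate 1 left out, the probe set ranked next and the third were at 1.14 ± 0.36 and 1.01 ± 0.33 (limma adjusted p = 0.125 and 0.129), and 4.08% of all tested probe sets then passed. With spike-in level as a block they were at -0.43 ± 0.42 and 0.36 ± 0.24 (limma adjusted p = 0.764 and 0.685), so that the sign of the first of these turned. The fourth probe set was at or below 0 on 5 of 6 arrays, from -1071 to 33.0.

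**Figure D2:**
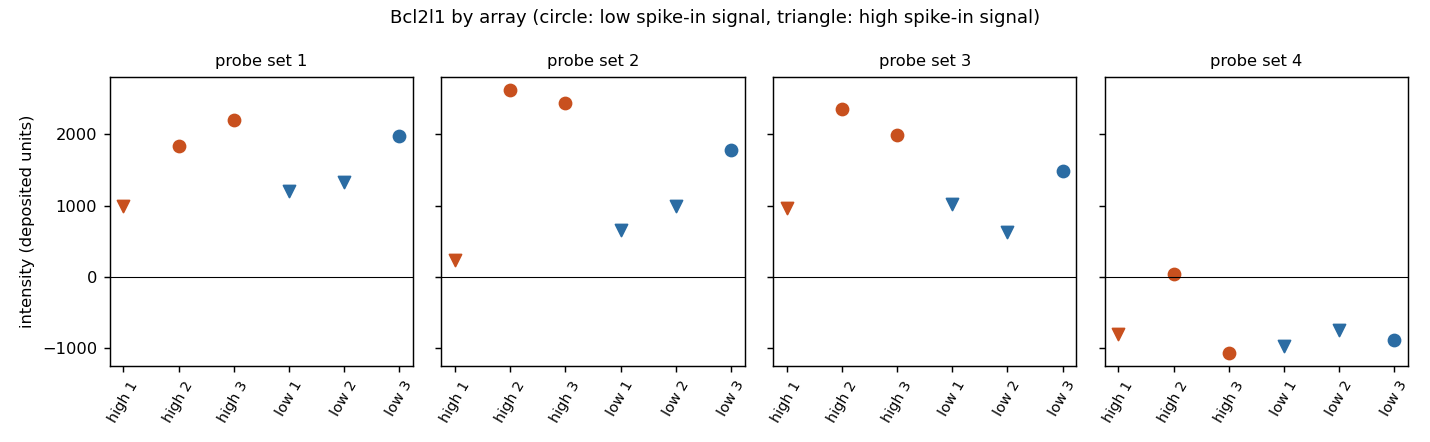
Intensity (vertical axis, deposited units) of the 4 Bcl2l1 probe sets, from brightest to dimmest, on each array (horizontal axis, high corn oil in orange left of low corn oil in blue). Circles are arrays with low and triangles arrays with high spike-in signal. In the first 3 panels the circles lie above all triangles, and in the last panel 5 of 6 values are below 0.

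Bcl2l2, the gene of the anti-apoptotic Bcl-w, was above noise on none of the 6 arrays. It read 971, 813 and 678 in the high corn oil rats and -112, 1049.6 and 1020.1 in the low corn oil rats. A single low corn oil array was thus below 0, and the remaining low values were above all high ones. The log2 difference of 0.68 ± 0.76 (SE, limma adjusted p = 0.721) took its sign from that array, and without low corn oil replicate 1 it was -0.30.

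Among the pro-apoptotic genes, Bad was well above noise and did not differ beyond the spread between rats. Bad binds and neutralizes Bcl2 and Bcl2l1 proteins when it is not phosphorylated. Its brightest probe set read 5297, 4725 and 4545 in the high corn oil rats and 5989.5, 4702 and 3480.1 in the low corn oil rats. The high corn oil values all lay within the range of the low ones. The difference was 0.07 ± 0.21 (log2, SE, limma adjusted p = 0.904), with a 95% interval of -0.43 to 0.57. The dimmer Bad probe set was above noise on 0 arrays, with values from -537 to 392, and was not tested.

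The brightest joint probe set of Bax, a pore-forming effector of the family, and LOC681314 was the brightest of the 20 and varied least between rats among the 15 tested. It read 20791, 19849 and 22093 in the high corn oil rats and 18342, 19034 and 20493 in the low corn oil rats. The diets overlapped, since high corn oil replicate 2 was below low corn oil replicate 3. The difference was 0.12 ± 0.12 (log2, SE, limma adjusted p = 0.707) and its 95% interval, -0.17 to 0.41, was the narrowest of the 15. The other joint probe sets were much dimmer and went opposite ways, at 0.28 ± 0.19 and -0.38 ± 0.31 (limma adjusted p = 0.575 and 0.632). They were above noise on 4 arrays, 1 of them high corn oil, and on 0 arrays. The brighter of these, with means of 1656 ± 273 in the high and 1323 ± 74.4 in the low corn oil rats (SD, n = 3 each), was also higher on all arrays with low spike-in signal.

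The difference of Casp1 between the diets was near 0 and within the spread between rats. Its promoter window is shown because it holds an interferon-type element, which 3.92% of the 33469 windows hold, and interferons are known to induce caspase 1 in human cells. The window lies on the plus strand of build GRCr8 at chr8:10872580-10872879 and also holds 1 GC box, with capitals as above.
Casp1: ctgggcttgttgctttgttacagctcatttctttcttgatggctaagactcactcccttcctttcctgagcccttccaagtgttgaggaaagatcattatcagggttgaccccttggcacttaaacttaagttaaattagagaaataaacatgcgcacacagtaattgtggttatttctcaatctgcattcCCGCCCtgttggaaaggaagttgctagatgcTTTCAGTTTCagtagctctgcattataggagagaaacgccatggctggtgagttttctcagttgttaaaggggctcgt
The element was read on this strand as TTTCAGTTTC and began at position -28 relative to the start. A match describes these letters and says nothing of a factor bound there.

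The brightest Casp1 probe set read 1746, 2324 and 2205 in the high corn oil rats and 2268.5, 2124 and 1802 in the low corn oil rats. The diets covered nearly the same range, and the difference was 0.01 ± 0.19 (log2, SE, limma adjusted p = 0.979) with a 95% interval of -0.42 to 0.45. The dimmer Casp1 probe sets were above noise on 0 arrays and differed by -0.12 ± 0.23 and 0.32 ± 0.30 (limma adjusted p = 0.836 and 0.663). Macrophages are a known source of caspase 1. Of 14 macrophage and myeloid markers 10 had a probe set and 5 were above noise on all arrays, while Csf1r and Itgam, which define such cells, were above noise on none. Their summed intensity ran from 74056 to 95904 in the high corn oil rats and from 90214 to 98388 in the low corn oil rats. The mean log2 level of the tested markers was 0.37 lower under the high diet (exact permutation p = 0.1, the smallest that 3 against 3 can give, and 0.15 adjusted over 3 array-level measures). Il1b and Il18, whose products caspase 1 matures, were at -0.20 ± 0.41 and -0.19 ± 0.33 (log2, SE, limma adjusted p = 0.845 and 0.824). Il1b was above noise on 2 arrays and Il18 on 0. Other Il1b probe sets were at -0.23 and 0.01.

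Casp2 was low on a single high corn oil array. Its brightest probe set read 1264.5, 2221 and 2877 in the high corn oil rats and 2364, 2069 and 2110.1 in the low corn oil rats. The low corn oil values lay within the range of the high ones, and high corn oil replicate 1 was the lowest of all. The difference was -0.10 ± 0.28 (log2, SE, limma adjusted p = 0.892), and it was 0.20 without high corn oil replicate 1. The middle Casp2 probe set was at -0.87 ± 0.73 (limma adjusted p = 0.647). It read 623, -25.3 and 1136 in the high corn oil rats and 1065, 764 and 689 in the low ones, so that its difference rests on the value below 0 in high corn oil replicate 2, and without that array it was 0.03. The dimmest averaged -21.3 over the 6 arrays and was not tested.

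Diablo had the largest difference among the listed genes above noise on all arrays, without passing the test. Its promoter window is shown for that reason. It lies on the plus strand of build GRCr8 at chr12:38716418-38716717.
Diablo: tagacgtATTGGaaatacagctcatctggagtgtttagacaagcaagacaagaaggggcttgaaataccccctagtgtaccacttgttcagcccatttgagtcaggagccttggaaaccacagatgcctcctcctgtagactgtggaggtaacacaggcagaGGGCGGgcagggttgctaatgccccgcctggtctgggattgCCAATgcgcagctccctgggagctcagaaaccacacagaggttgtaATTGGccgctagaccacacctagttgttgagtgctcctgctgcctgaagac
The capitals mark 3 CCAAT boxes, read on either strand, and 1 GC box. A CCAAT box was present in 37.5% of the 33469 windows.

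Diablo read 2279, 3276 and 2231 in the high corn oil rats and 1479, 1445 and 2272 in the low corn oil rats. High corn oil replicate 2 was the highest and low corn oil replicates 1 and 2 the lowest, while low corn oil replicate 3 lay between high corn oil replicates 1 and 3. The mean was 2595 ± 590.0 in the high and 1732 ± 468 in the low corn oil rats (SD, n = 3 each). The log2 difference was 0.55 ± 0.24 (SE, limma adjusted p = 0.501), with a 95% interval of -0.02 to 1.12. Within the arrays of high spike-in level it was 0.59, and within those of low level 0.24. Leaving out each array in turn gave 0.38 to 0.75. With the 99th percentile in place of the 95th as the noise bound, Diablo was above noise on 0 arrays.

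**Figure D3:**
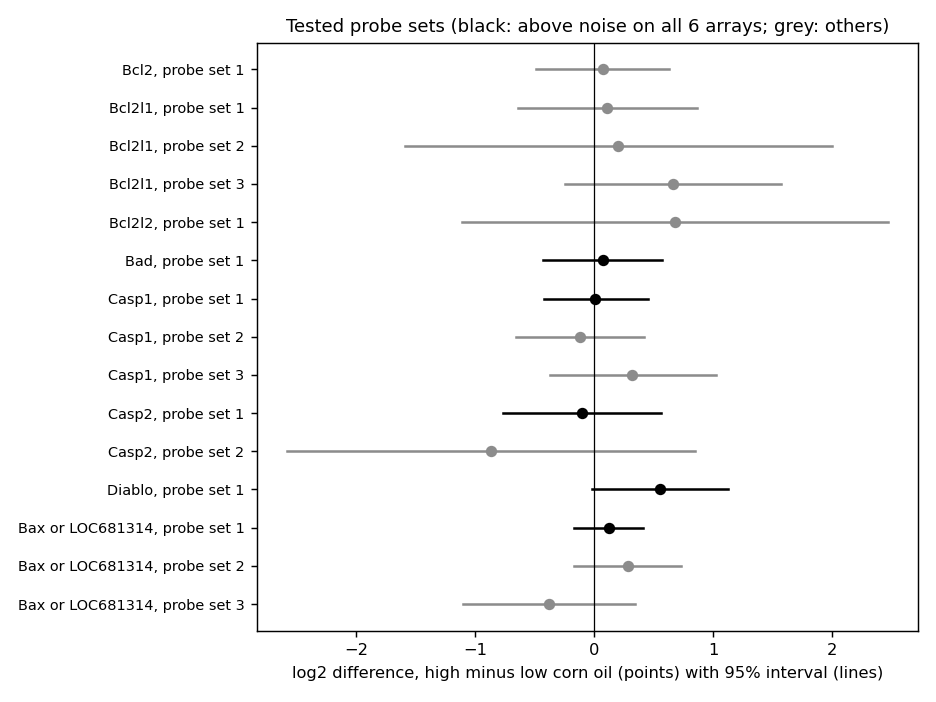
Log2 difference between high and low corn oil (horizontal axis) for the 15 tested probe sets (vertical axis, numbered from brightest to dimmest within a gene), as points with 95% intervals from limma. Black marks the 5 probe sets above noise on all 6 arrays. Every interval includes 0, from the narrowest for the brightest joint probe set of Bax and LOC681314 (-0.17 to 0.41) to intervals more than 3 log2 units wide for dim probe sets.

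Other genes of the apoptosis pathway were described from lists of 71 genes, of which 35 had a probe set of their own and 29 were tested. With 1 probe set per gene, the brightest, 16 were higher and 13 lower under the high diet, with a median log2 difference of 0.04, against 0.05 over all 3162 tested genes. Of those 3162 genes, likewise at the brightest probe set, 1763 were higher and 303 had an unadjusted limma p under 0.05. Their diets did not overlap in 297 genes that were higher and in 200 that were lower. In limma 0 of the 29 passed, and 0 had an unadjusted p under 0.05. The diets did not overlap in 3 of them, 1 higher and 2 lower, where 8.83% of all tested probe sets were apart and higher and 6.71% apart and lower.

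In the other BCL2 family genes 5 of 6 were higher (median 0.07). Hrk, a pro-apoptotic BH3-only gene, averaged 2450.0 ± 460 in the high and 1720.0 ± 837 in the low corn oil rats (SD, n = 3 each), a log2 difference of 0.55 ± 0.31. Bok, a Bax-like gene, was at 0.24 ± 0.28, with another tested probe set at -0.66, and the effector Bak1 at 0.02 ± 0.22. Bid, which links death receptors to mitochondria, was at -0.34 ± 0.36 and above noise on 0 arrays. The limma adjusted p of these 4 genes ran from 0.535 to 0.978.

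Of the 3 tested genes of the list of other caspases and the inflammasome, the executioner caspase gene Casp6 was alone above noise on all arrays, at 0.10 ± 0.25 (log2, SE, limma adjusted p = 0.874). Casp9 had no named probe set, and the probe set of Cycs, the gene of cytochrome c, was shared with other genes, so these were not analysed here. Among 6 tested genes of mitochondrial release and caspase inhibition 3 were higher and 3 lower (median 0.04). Ppid, a cyclophilin gene, averaged 1772 ± 902 in the high and 898.5 ± 215 in the low corn oil rats (SD, n = 3 each), a log2 difference of 0.78 ± 0.37 (SE, limma adjusted p = 0.505). It was above noise on a single array and higher on all arrays with low spike-in signal. Slc25a5, an ADP/ATP carrier of the inner mitochondrial membrane, was the 1 gene apart and higher. It read 27445, 23782 and 23890.2 in the high corn oil rats and 22818, 23685 and 23568 in the low corn oil rats, at 0.10 ± 0.12 (log2, SE, limma adjusted p = 0.757). High corn oil replicate 2 was thus above low corn oil replicate 2 by a narrow margin. Slc25a4, which encodes another such carrier, was at -0.23 ± 0.17 (limma adjusted p = 0.605). Ppif, the gene of the mitochondrial cyclophilin D, was at -0.20 ± 0.23 (limma adjusted p = 0.716). Of the death receptor list 2 genes were tested, the TNF receptor gene Tnfrsf1a at -0.33 ± 0.30 and the adaptor gene Traf2 at 0.07 ± 0.18 (limma adjusted p = 0.663 and 0.880).

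The 12 tested regulators of DNA damage and survival were split evenly, 6 higher and 6 lower (median 0.00). Of the 12, 5 encode 14-3-3 proteins, which hold phosphorylated Bad away from mitochondria. Both genes of this list whose diets did not overlap were among these 5. Ywhah read 16125.0, 15499 and 15321 in the high corn oil rats and 19277, 18160.3 and 18998 in the low corn oil rats. Its difference was -0.26 ± 0.12 (log2, SE, limma adjusted p = 0.501). Ywhaz read 17438, 16071 and 16477 in the high corn oil rats and 18902, 20160.3 and 18832 in the low ones, at -0.21 ± 0.12 (limma adjusted p = 0.533). Over all 5 14-3-3 genes on the list, 6 of 10 tested probe sets were lower, against 46.1% of all tested, and in 3 of the 10 the diets did not overlap and the high diet was lower, against 6.71% of all tested. These probe sets were counted after their values were seen. Probe sets of 1 gene did not always share a sign. The brightest ones of Ywhae and Ywhaq were at 0.26 and 0.04, and dimmer ones at -0.60 and -0.38. That dimmer Ywhae probe set was the third whose diets did not overlap (limma adjusted p = 0.480), with 2064, 1915 and 1343 in the high corn oil rats and 2863, 3337 and 2134 in the low corn oil rats. Other probe sets were at -0.44 for Ywhah and at -0.15 and 0.05 for Ywhaz, and the probe set of Ywhab was at 0.16. Akt2, a survival kinase gene, was at -0.66 ± 0.34 (limma adjusted p = 0.516) and above noise on 1 array. Clu, which encodes clusterin and is known to rise in the regressing rat prostate, was at -0.14 ± 0.16 (limma adjusted p = 0.725), with 47080.0 ± 6703 in the high corn oil rats and 51880.0 ± 6158 in the low ones (SD, n = 3 each).

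**Figure D4:**
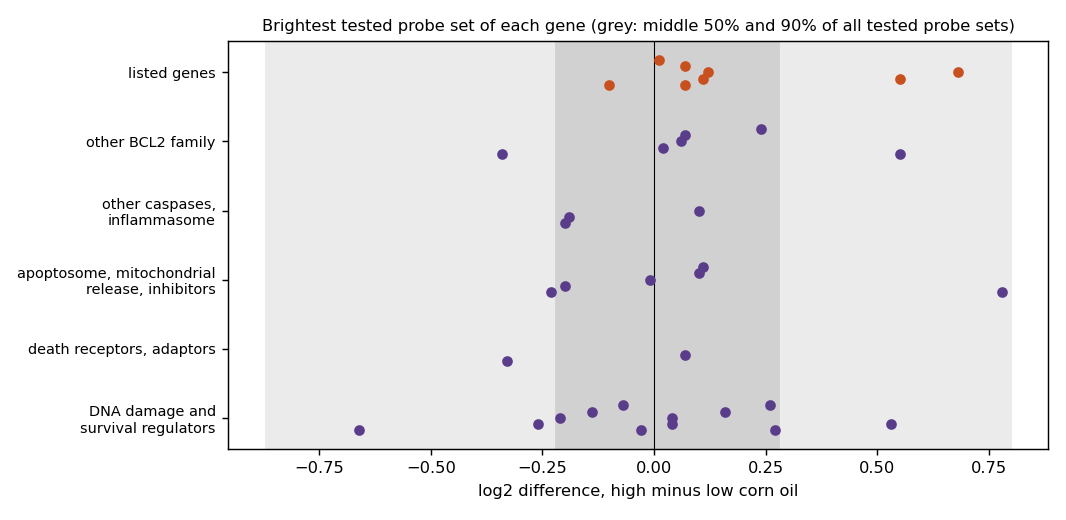
Log2 difference between high and low corn oil (horizontal axis) at the brightest tested probe set of each gene, with the listed genes and the joint probe set of Bax and LOC681314 in the top row and the 5 pathway lists below it (vertical axis). Grey bands hold the middle 50% and 90% of all 5244 tested probe sets, and all points lie within the outer band, from -0.87 to 0.80.

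Patterns across arrays were compared for the 2 listed genes above noise that varied most, Diablo and Casp2. Likeness was the root mean square difference of log2 values, centred on each gene's mean over the 6 arrays, among 1446 other genes above noise. The genes nearest to Diablo were Myh3 and Hrk, at 0.13 and 0.15, and those nearest to Casp2 were Mmp2 and Efemp1, at 0.09 and 0.10. The median gene stood at 0.40 from either. Myh3 read 7761, 13508 and 9234 in the high corn oil rats and 5130.3, 6033 and 8294 in the low ones, again highest in high corn oil replicate 2. Mmp2 read 2924, 4929 and 5406 in the high corn oil rats and 5037, 4462 and 4089 in the low ones, again lowest in high corn oil replicate 1. These points share their arrays with the genes they are set beside.

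Secretory genes of the labelled tissue were bright on all arrays. Pbsn (probasin) read 99574, 19851 and 21926 in the high corn oil rats and 78113 to 82039 in the low corn oil rats, and Msmb read 73854, 33652 and 39953 in the high and 66835 to 80234 in the low corn oil rats. High corn oil replicates 2 and 3 were thus the lowest in both. They were also the lowest in the keratin gene Krt18, at 24173 and 23695 against 29874 to 34742 on the other arrays. The keratin gene Krt8 read 11346 to 15529 in the high and 12241 to 14803 in the low corn oil rats. Krt19 was lowest in low corn oil replicate 3 (19443). Epcam went the other way, with 15906, 18308 and 15816 in the high and 12239, 12701 and 15141 in the low corn oil rats. All high Epcam values were thus above all low ones, as in 8.83% of all tested probe sets. Of 9 prostate epithelium markers 8 had a probe set and 6 were above noise on all arrays. Fibroblast markers summed to 91029 to 108852 in the high and 134446 to 166997 in the low corn oil rats, so that these sums did not overlap. Dcn and Mgp were the brightest in the sum. Among the 9 with a probe set, the diets overlapped in Col3a1 and in Pdgfrb, which was above noise on 0 arrays. The mean log2 level of the tested fibroblast markers was 0.64 lower under the high diet (exact permutation p = 0.1, the smallest possible, and 0.15 adjusted over 3 array-level measures). Of 9 other leukocyte markers with a probe set, 0 were above noise on all arrays. From 18.8% to 23.1% of the values were at or below 0 on the high corn oil arrays and from 18.6% to 20.3% on the low ones. The part of these array differences in the values of the listed genes was not tested.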

How the data were processed

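Total RNA (6 ug per sample) of 6 dorsolateral prostates was measured on short-oligonucleotide arrays, 1 array per rat. Per the submitters' processing notes MAS5 was used, with a version and settings not given in the sources used here. The authors deposited intensity values already scaled to a like mean on every array, and how values below 0 arose is not given in the sources used here. Detection calls were not used here, so noise was judged from the values below 0. The number of arrays limits the precision. Names were taken from the annotation of the platform, and 6985 of 7006 single-gene probe sets were updated through gene identifiers to GRCr8 names. A further 308 probe sets had several genes, 1426 had none and 59 were controls.

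Values below 0 were set to 0 and transformed as log2(value + 156.1), the added number being the median of all values over 4. Probe sets with a mean of at least 343, the 40th percentile, were tested. The comparison of diets used limma 3.58.1 (R 4.3.3; lmFit, eBayes with an intensity trend, two-sided, no covariate, Benjamini-Hochberg over 5244 probe sets), and intervals came from the same fit. The limma step was tested on simulated data. Array-level means were compared with an exact permutation test. Named were all probe sets of the listed genes, the 3 genes of each pathway list with the smallest p, and Casp9, Bak1, Bid, Cycs and Clu. Slc25a5 and further 14-3-3 genes were named after their values were seen. A further item under the naming rule is not reported here. The listed genes and all lists were chosen with earlier results of these data known. Alternatives changed the added number, the filter, the scaling, the handling of values below 0, the trend, array weights, a block on replicate number or spike-in level, the diet of high corn oil replicate 3, the summary over probe sets and the arrays included. The bound from control probe sets and the differences within spike-in levels were added after seeing the data.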

Additional observations from a re-analysis of the deposited data

How the results depend on the processing

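In every fit of single probe sets, 0 probe sets of the listed genes and 0 genes of the pathway lists passed limma's adjusted threshold. Over all probe sets the count was 0 except for 9 with no filter and a range of 0 to 214 when each array was left out in turn, the 214 being without high corn oil replicate 1. The count at an unadjusted p under 0.05, 522 in the report's limma fit, moved more. It was 1534 with array weights, 347 of fewer tested probe sets with the filter at the 60th percentile, 75 with the third high corn oil array moved to the low diet, and 253 to 1363 when each array was left out, the lowest being without high corn oil replicate 3 and the highest without high corn oil replicate 1. Leaving out the second low corn oil array gave 274, and leaving out the first of that diet gave 296. Among the listed genes it was 0 in the report and 0 to 2 over the alternatives, Casp2 being the 1 after that move of an array. With the replicate number as a block 0 passed, with 554 at an unadjusted p under 0.05. Deviations from the diet means of arrays with the same number correlated at -0.05, -0.20 and 0.18. High corn oil replicate 1 correlated best with low corn oil replicate 2 (0.27). These values show no pairing by number, but with 3 centred arrays per diet they cannot exclude one. Of 151 alternative values for the brightest probe sets of the listed genes, 133 kept their sign and 18 changed it, and none of these differences had passed the test. Bcl2 was at -0.01 and Bcl2l1 at -0.14 with spike-in level as a block. Casp1 was then at -0.00028, at -0.0029 after quantile normalization, and at -0.05 both with arrays scaled to the same median and with the third high corn oil array moved to the low diet. In that last setting Bcl2l1 was at -0.24. Bad was at -0.31 as a mean over its probe sets, and Casp2 at 0.17 with array weights. Leaving out each array in turn gave -0.14 to 0.21 for Bcl2, -0.10 to 0.41 for Bcl2l1, -0.30 to 1.18 for Bcl2l2, -0.13 to 0.25 for Bad, -0.07 to 0.13 for Casp1 and -0.34 to 0.20 for Casp2. Diablo and the brightest joint probe set of Bax and LOC681314 kept their sign over all alternatives, at 0.38 to 0.75 and 0.01 to 0.16. That 0.01 was the mean over the joint probe sets, and leaving out each array in turn gave 0.08 to 0.16. The cause of the sign changes was not tested. Of the 20 probe sets, 2 were above noise on all arrays with the 99th percentile as the bound, 7 when all 3 arrays of either diet sufficed, and 9 when the bound was the highest bacterial or yeast control probe set, against 5 in the report. For the 9 probe sets at noise on all 6 arrays, a difference between the diets was not detectable at this signal over background.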

Other observations

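Bcl2l15, a BCL2-like gene outside the lists above and chosen after its values were seen, read 11649, 7922 and 8039 in the high corn oil rats and 7259, 6748 and 5922 in the low corn oil rats. All 3 high corn oil values were above all low ones, as in 8.83% of all tested probe sets. The log2 difference was 0.44 ± 0.19 (SE, limma adjusted p = 0.500), so it did not pass the test either.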
